A study of Homo sapiens with 22 samples.

Results

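Histone acetylation is set by acetyltransferases, removed by deacetylases and read by bromodomain proteins, and 43 human genes of these 3 kinds were followed across 6 groups of engineered HEK293 cells. They were chosen by name, with earlier results of these data known. The list holds 15 acetyltransferases, 11 zinc-dependent deacetylases of classes I, IIa, IIb and IV, 7 sirtuins, which are deacylases that use NAD, and 10 bromodomain genes. All 43 matched 1 of the 48162 gene IDs counted, and all 43 were among the 16694 genes that passed the filter on low counts. Acetyltransferases move an acetyl group from acetyl-CoA to lysines of histone tails, which loosens DNA from the nucleosome and makes a docking site for bromodomains. Deacetylases undo this, mostly as subunits of corepressor complexes. p300, encoded by EP300, and its paralogue CREBBP are the coactivators that place H3K27ac, a mark of active enhancers and promoters.

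The study tethered parts of this machinery to DNA with dCas9, a Cas9 that binds where a guide RNA directs it but does not cut. VPRP sgHBB cells carried dCas9-VPRP, in which the activator VPR is joined to p300, with a guide against the beta-globin gene HBB. VPRP non-target cells carried the same fusion with a non-targeting guide. p300 and p300 D1399Y cells carried dCas9-p300 or its D1399Y form, a substitution in the catalytic domain, and VPR cells carried dCas9-VPR (VP64, p65 and Rta), all 3 with the HBB guide. WT cells held a guide and no fusion, and the labels do not name that guide. The protocol gives dox, the inducer of the fusions, for 48 hours and names no exception, and every library came from the same number of sorted cells. WT cells were sorted on the guide's marker alone, the others on 2 markers. Each group has 2 poly(A)-selected RNA libraries described as biological replicates. Whether a line was 1 clone or a pool is not stated in the labels, and 10 ChIP samples, 2 of them with labels that conflict, were not analysed here.

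Library totals ran from 14894558 to 17479523 counts. Levels are CPM, counts relative to the library total adjusted by its TMM factor, so they compare libraries for 1 gene, not genes with each other. A gene was called when its adjusted p in edgeR's quasi-likelihood test, Benjamini-Hochberg adjusted over all 16694 genes, was under 0.05, and fold changes are log2 with their SE. In bulk RNA, less RNA per cell and fewer cells with it cannot be told apart. Of the markers chosen for HEK293, PAX2, NEFM, INA, KRT8, KRT18 and VIM were present in every group, and PTPRC, CD3E and ALB stayed at or under 0.556 CPM as group means. Some markers moved with the groups. COL1A1, a fibroblast gene, averaged 59.9 CPM in VPRP sgHBB, 39.1 in VPRP non-target, 28.0 in p300, 35.2 in p300 D1399Y, 21.5 in VPR and 12.2 in WT. VIM averaged 62.3 CPM in VPRP sgHBB, 59.5 in VPRP non-target, 90.6 in p300, 143 in p300 D1399Y, 96.6 in VPR and 175 in WT, and KRT8 averaged 68.7 CPM in VPRP sgHBB, 49.0 in VPRP non-target, 49.8 in p300, 88.0 in p300 D1399Y, 53.9 in VPR and 27.4 in WT. Their part in the results was not tested. HBB, the targeted gene, was at 1556 ± 249.6 CPM in VPRP sgHBB, 187 ± 2.67 in p300, 79.1 ± 4.23 in p300 D1399Y and 80.4 ± 20.6 in VPR (SD, n = 2 each), and at 0 counts in all 4 VPRP non-target and WT libraries. The cancer-testis gene MAGEA10 was at 0.213 ± 0.0673 CPM in VPRP sgHBB, 32.0 ± 0.0315 in VPRP non-target, 0 in p300, 0.0692 ± 0.0978 in p300 D1399Y, 25.9 ± 1.47 in VPR and 9.46 ± 0.163 in WT (SD, n = 2 each). Comparisons that set VPRP sgHBB, p300 or p300 D1399Y against VPRP non-target, VPR or WT therefore also cross this difference, whose part in the results was not tested. The pairs p300 and p300 D1399Y, VPRP non-target and VPR, VPRP non-target and WT, VPR and WT, and VPRP sgHBB and p300 do not cross it.

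More of the genes were lower than higher in the comparisons with WT. In VPRP sgHBB against WT 8 were called higher and 23 lower, 31 of 43, where 59.1% of all genes tested were called (31.1% higher, 28% lower). VPRP non-target against WT gave 9 higher and 23 lower, beside 59.7% of all genes (31.2% and 28.5%). For p300 against WT the counts were 8 and 19, beside 46.1% (24.5% and 21.6%). p300 D1399Y against WT gave 5 and 11, beside 30.2% (15.7% and 14.5%), and VPR against WT gave 3 and 12, beside 25.3% (13.8% and 11.5%). The last count rested on single libraries: 15 calls became 6 without VPR replicate 2 and 7 without WT replicate 2. These 5 comparisons share the WT libraries, so they are given side by side only. The higher calls, and the counts at 1.5-fold below, include EP300 in all but VPR against WT, and its reads can come from the construct. Without EP300, 7 genes were higher in VPRP sgHBB, 8 in VPRP non-target, 7 in p300 and 4 in p300 D1399Y. The median log2 change of the 43 genes was -0.32 in VPRP sgHBB, -0.26 in VPRP non-target, -0.19 in p300, -0.06 in p300 D1399Y and -0.13 in VPR against WT, and over all genes it lay between 0.00 and 0.04. The listed genes have more reads than most: the median of their mean read counts was 46.4 CPM, against 18.4 CPM over all genes tested, and the part of this depth in the share called was not tested. Most changes were small. At 1.5-fold or more with libraries that did not overlap, VPRP sgHBB against WT kept 13 members (30.2%), beside 34.6% of all genes, and VPRP non-target against WT kept 15 (34.9%), beside 35.8%, shares close to the background. By the same rule 5 members were called in p300 against WT, beside 22% of all genes, 3 in p300 D1399Y against WT, beside 12.1%, and 3 in VPR against WT, beside 7.29%.

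**Figure D1:**
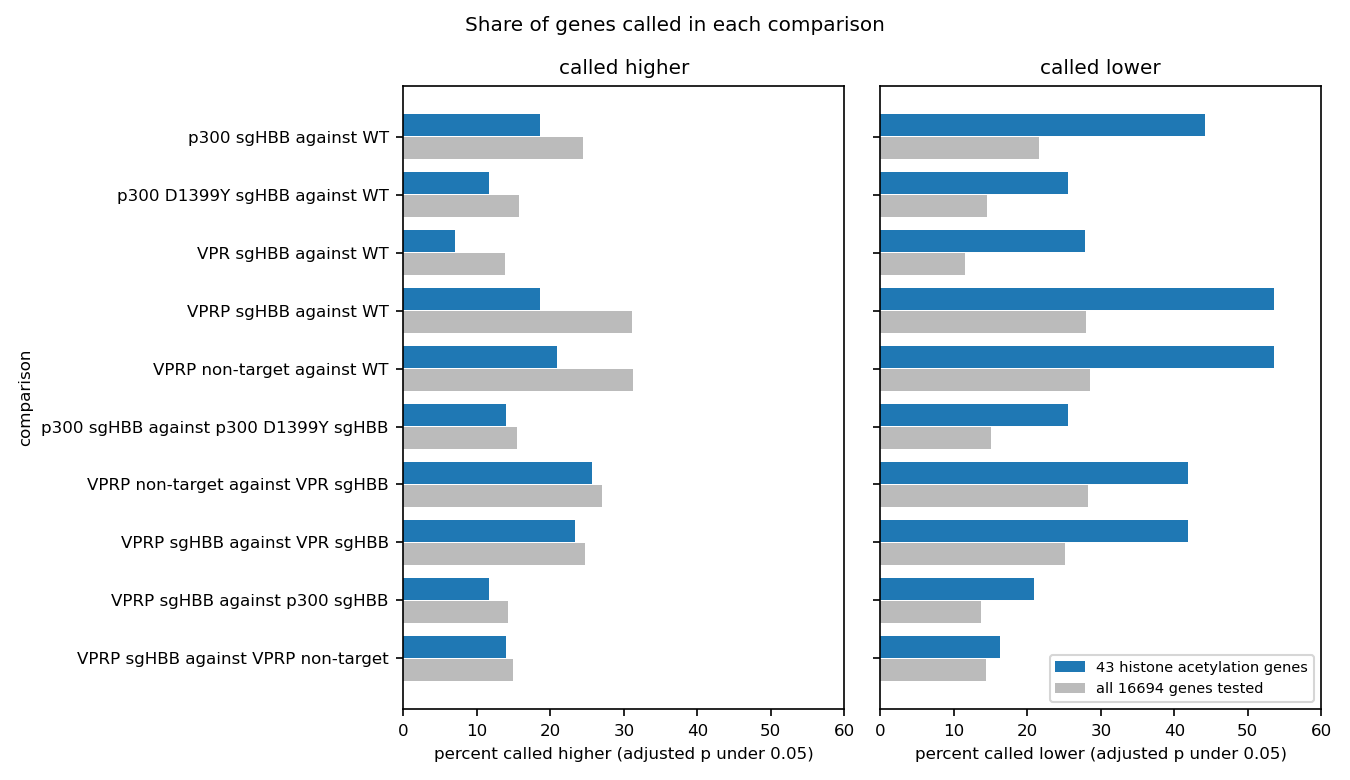
Percent of genes called higher (left) and lower (right) at adjusted p under 0.05 in each of 10 comparisons, for the 43 histone acetylation genes (blue, EP300 included) and all 16694 genes tested (grey). In VPRP sgHBB against WT 53.5% of the listed genes, against 28% of all genes, were lower and 18.6%, against 31.1%, were higher. In these fits the blue bar is the longer for lower calls and the shorter for higher calls in all 10 comparisons. These reuse the same 12 libraries, and some gaps are small. In p300 against p300 D1399Y 14%, against 15.4%, were higher. In VPRP sgHBB against VPRP non-target 16.3%, against 14.4%, were lower and 14%, against 14.9%, were higher.

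Between cells that all carried a fusion, p300 against p300 D1399Y gave 6 higher and 11 lower members, beside 30.4% of all genes (15.4% and 15%), and with upper-quartile scaling 6 and 7. Its 17 calls became 11 without p300 replicate 1 and 9 without p300 D1399Y replicate 1. VPRP non-target against VPR gave 11 and 18, beside 55.3% (27% and 28.2%), and this pair differs in the guide as well as in the p300 part. VPRP sgHBB against VPR gave 10 and 18, beside 49.8% (24.7% and 25.1%). Against p300, VPRP sgHBB gave 5 and 9, beside 27.9% (14.3% and 13.7%), and the 14 calls became 8 without p300 replicate 1 and 7 without p300 replicate 2. Without VPRP sgHBB replicate 1 they were 5 higher and 5 lower. Against VPRP non-target it gave 6 and 7, beside 29.3% (14.9% and 14.4%), but this split turned round in other settings. It was 6 higher and 2 lower without VPRP sgHBB replicate 1, 3 and 1 without VPRP non-target replicate 1, 5 and 2 without VPRP non-target replicate 2, and 6 and 4 with no filter on low counts. At 1.5-fold or more with separate libraries the counts were 6 for p300 against p300 D1399Y, beside 11.1% of all genes, and 10 for VPRP non-target against VPR, beside 29.5%. They were 8 for VPRP sgHBB against VPR, beside 24.6%, 4 against p300, beside 9.96%, and 3 against VPRP non-target, beside 12.1%. EP300 is among the genes called in each of these comparisons. Without it the higher calls were 5 in p300 against p300 D1399Y, 10 in VPRP non-target against VPR and 9 in VPRP sgHBB against VPR. The lower calls of VPRP sgHBB without it were 8 against p300 and 6 against VPRP non-target. Of the 43 genes, HDAC10 was called in none of the 10 comparisons and had 1 to 11 counts per library, so small changes in it were not detectable at this depth.

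**Figure D2:**
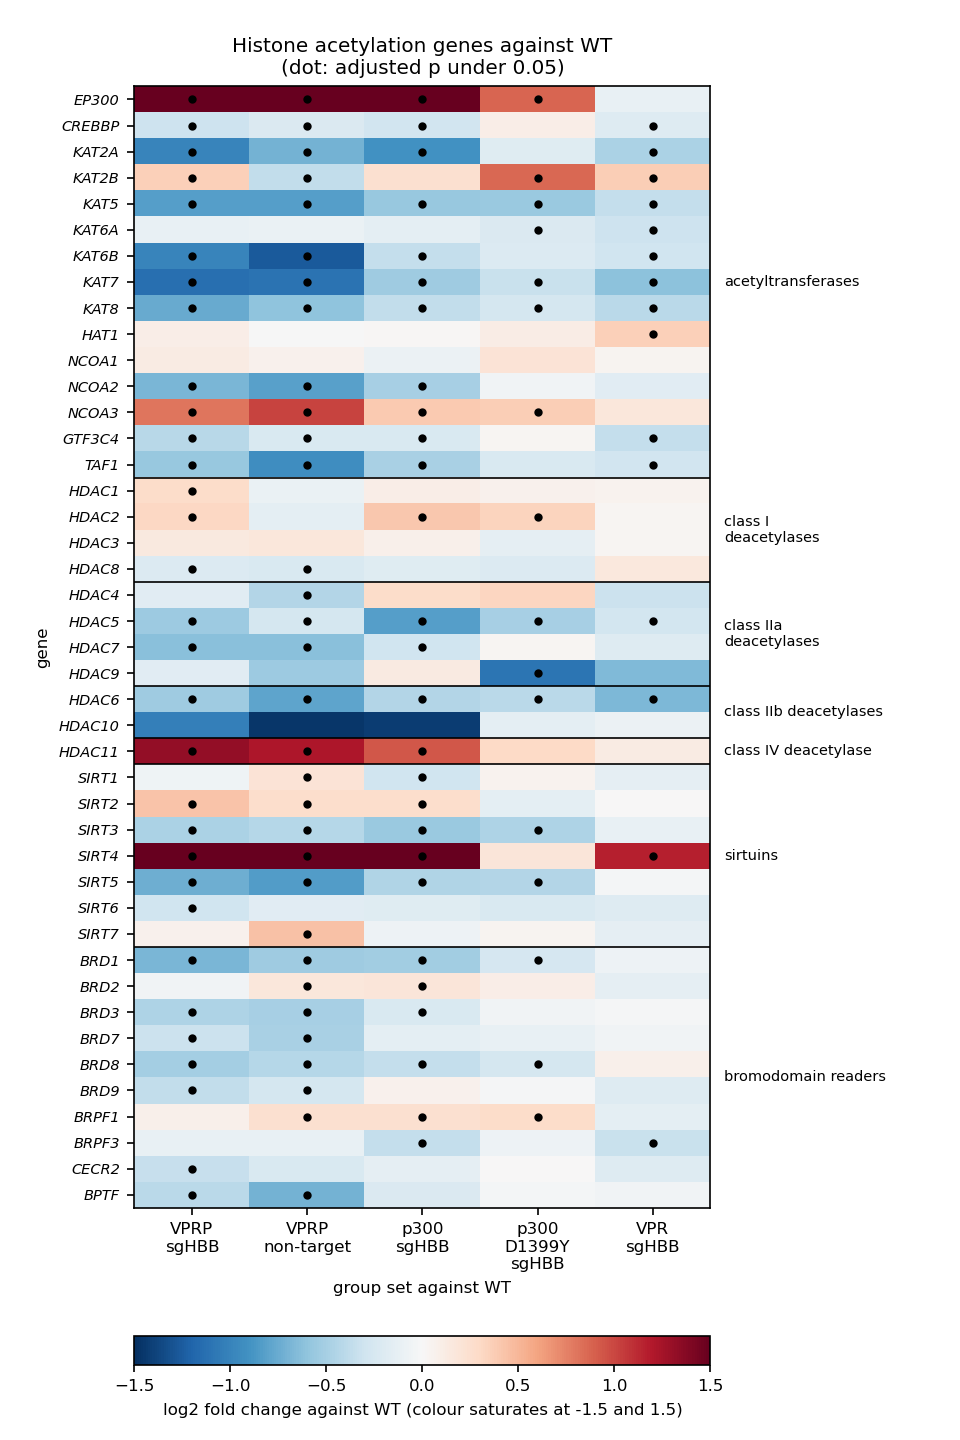
log2 fold change against WT of the 43 genes (rows, by role) in the 5 groups with a fusion (columns), with colour from blue (lower) to red (higher) that saturates at -1.5 and 1.5 and a dot for adjusted p under 0.05. SIRT4 and HDAC11 are red, with a dot, in VPRP sgHBB, VPRP non-target and p300, and KAT7 is blue with a dot in all 5 columns.

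EP300, the gene whose product was tethered, comes first. EP300 reads can come from the construct and from the cells' own gene, which the counts do not separate. It was at 351 and 398 CPM in VPRP sgHBB, 1165 and 1179 CPM in VPRP non-target, 1116 and 1132 CPM in p300, 195 and 194 CPM in p300 D1399Y, 111 and 86.3 CPM in VPR and 110.4 and 103 CPM in WT. The 2 groups with most reads were VPRP non-target and p300, while VPR and WT overlapped. Against WT it was 11.0-fold higher in VPRP non-target (log2 3.46, SE 0.0898, adjusted p = 6.44e-26), 10.6-fold in p300 (log2 3.40, SE 0.0896, adjusted p = 1.62e-25), 3.52-fold in VPRP sgHBB (log2 1.81, SE 0.0859, adjusted p = 7.72e-19) and 1.83-fold in p300 D1399Y (log2 0.87, SE 0.0857, adjusted p = 7.61e-10). VPRP sgHBB held 3.13-fold less than VPRP non-target (log2 -1.64, SE 0.0822, adjusted p = 2.74e-17), and p300 held 5.78-fold more than p300 D1399Y (log2 2.53, SE 0.0855, adjusted p = 2.95e-22). So p300 and p300 D1399Y differ in EP300 reads as well as in the substitution, and these cannot be told apart. CREBBP, the closest relative of p300, was at 109 and 118 CPM in VPRP sgHBB, 120.0 and 123 CPM in VPRP non-target, 110.4 and 121 CPM in p300, 156 and 146 CPM in p300 D1399Y, 128 and 118 CPM in VPR and 141 and 141 CPM in WT. Both p300 libraries lay below both p300 D1399Y libraries, and CREBBP fell in p300 against p300 D1399Y (log2 -0.39, SE 0.0737, adjusted p = 0.000116). Against WT it was called lower in 4 groups: VPRP sgHBB (log2 -0.32, SE 0.0740, adjusted p = 0.000428), VPRP non-target, p300 and VPR. The VPR call was lost with upper-quartile scaling (adjusted p = 0.0897), with no filter on low counts (0.0681) and in other settings. The VPRP non-target and p300 calls were each lost in at least 1 setting. In VPRP non-target against VPR CREBBP was not called (log2 -0.02, SE 0.0740, adjusted p = 0.878).

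NCOA3, a nuclear receptor coactivator that binds p300, was the acetyltransferase other than EP300 with the largest rise in VPRP cells. Its level was 48.4 and 52.4 CPM in VPRP sgHBB, 60.1 and 57.0 CPM in VPRP non-target, 38.3 and 37.5 CPM in p300, 38.3 and 36.4 CPM in p300 D1399Y, 32.5 and 32.6 CPM in VPR and 28.6 and 29.2 CPM in WT. Both VPRP groups lay above all other libraries, and the p300, p300 D1399Y and VPR groups lay between them and WT. It rose 2.02-fold in VPRP non-target (log2 1.02, SE 0.0896, adjusted p = 8.19e-12) and 1.74-fold in VPRP sgHBB (log2 0.80, SE 0.0905, adjusted p = 2.39e-09) against WT. VPRP non-target also exceeded VPR (log2 0.85, SE 0.0885, adjusted p = 7.33e-10), and VPRP sgHBB exceeded p300 (log2 0.41, SE 0.0875, adjusted p = 0.000471). Between p300 and p300 D1399Y the change in NCOA3 was 0.02 (SE 0.0898, adjusted p = 0.899), with overlapping libraries.

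Its relative NCOA2 went the other way. NCOA2 was at 25.7 and 27.5 CPM in VPRP sgHBB, 23.3 and 25.1 CPM in VPRP non-target, 28.4 and 32.2 CPM in p300, 40.9 and 41.5 CPM in p300 D1399Y, 40.5 and 35.8 CPM in VPR and 41.7 and 43.8 CPM in WT. VPRP sgHBB, VPRP non-target and p300 libraries all lay below the p300 D1399Y, VPR and WT libraries. NCOA2 fell 1.77-fold in VPRP non-target (log2 -0.82, SE 0.0999, adjusted p = 1.22e-08) and 1.61-fold in VPRP sgHBB (log2 -0.68, SE 0.0993, adjusted p = 3.64e-07) against WT, 1.57-fold in VPRP non-target against VPR (log2 -0.66, SE 0.101, adjusted p = 1.41e-06) and 1.36-fold in p300 against p300 D1399Y (log2 -0.44, SE 0.0981, adjusted p = 0.000735). NCOA1, the third of this family, ran from 23.6 to 30.2 CPM over the 12 libraries. Its only call was in p300 against p300 D1399Y (log2 -0.29, SE 0.110, adjusted p = 0.0436), lost when any 1 of those 4 libraries was left out (adjusted p 0.127 to 0.169).

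KAT2A (GCN5), the acetyltransferase of the SAGA and ATAC complexes, had its lowest levels in the groups with an intact p300 part. KAT2A was at 36.5 and 36.1 CPM in VPRP sgHBB, 43.3 and 44.9 CPM in VPRP non-target, 37.0 and 40.0 CPM in p300, 63.6 and 63.4 CPM in p300 D1399Y, 51.9 and 51.7 CPM in VPR and 71.4 and 73.0 CPM in WT. All VPRP and p300 libraries lay below the VPR libraries, and WT was highest. KAT2A fell 1.99-fold in VPRP sgHBB (log2 -0.99, SE 0.0835, adjusted p = 2.79e-12), 1.87-fold in p300 (log2 -0.91, SE 0.0831, adjusted p = 6.89e-11), 1.64-fold in VPRP non-target (log2 -0.71, SE 0.0819, adjusted p = 3.78e-09) and 1.39-fold in VPR (log2 -0.48, SE 0.0816, adjusted p = 4.11e-05) against WT. In p300 D1399Y against WT the value was -0.19 with no call (adjusted p = 0.0763), and p300 lay 1.65-fold below p300 D1399Y (log2 -0.72, SE 0.0834, adjusted p = 3.87e-08). VPRP non-target against VPR was a smaller fall (log2 -0.23, SE 0.0836, adjusted p = 0.019). It failed without VPRP non-target replicate 1 (adjusted p = 0.101), with DESeq2 (0.0752) and with only those 2 groups in the fit (0.063).

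KAT2B (PCAF), the alternative to KAT2A in the same complexes, had another order. It was at 18.8 and 18.6 CPM in VPRP sgHBB, 10.6 and 12.0 CPM in VPRP non-target, 18.2 and 16.4 CPM in p300, 26.6 and 26.6 CPM in p300 D1399Y, 16.6 and 21.1 CPM in VPR and 14.7 and 14.5 CPM in WT. The 2 p300 D1399Y libraries were highest and the 2 VPRP non-target libraries lowest. KAT2B rose 1.82-fold in p300 D1399Y against WT (log2 0.87, SE 0.127, adjusted p = 2.11e-06) and fell 1.54-fold in p300 against p300 D1399Y (log2 -0.62, SE 0.124, adjusted p = 0.000214). It fell 1.66-fold in VPRP non-target against VPR (log2 -0.73, SE 0.134, adjusted p = 2.15e-05) and was 1.65-fold higher in VPRP sgHBB than in VPRP non-target (log2 0.72, SE 0.133, adjusted p = 7.33e-05).

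The MYST acetyltransferases, a family that includes the catalytic subunits of the TIP60, HBO1, MOZ/MORF and MSL/NSL complexes, include several acetyltransferases that fell against WT. KAT7 (HBO1), which acetylates histone H3 and H4 and is known for its part in replication licensing, was at 42.3 and 42.5 CPM in VPRP sgHBB, 39.7 and 46.1 CPM in VPRP non-target, 61.1 and 67.0 CPM in p300, 70.2 and 77.9 CPM in p300 D1399Y, 60.8 and 60.1 CPM in VPR and 95.5 and 90.3 CPM in WT. Every library with a fusion lay below both WT libraries, and the 4 VPRP libraries lay below all others. KAT7 fell 2.19-fold in VPRP sgHBB (log2 -1.13, SE 0.0866, adjusted p = 2.53e-13), 2.16-fold in VPRP non-target (log2 -1.11, SE 0.0862, adjusted p = 3.49e-13), 1.45-fold in p300 (log2 -0.54, SE 0.0838, adjusted p = 2.64e-06), 1.26-fold in p300 D1399Y (log2 -0.33, SE 0.0833, adjusted p = 0.00251) and 1.54-fold in VPR (log2 -0.62, SE 0.0846, adjusted p = 1.48e-06) against WT. VPRP non-target lay below VPR (log2 -0.49, SE 0.0880, adjusted p = 1.48e-05) and VPRP sgHBB below p300 (log2 -0.60, SE 0.0876, adjusted p = 2.6e-06). p300 against p300 D1399Y was not called (log2 -0.21, SE 0.0846, adjusted p = 0.0615).

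KAT6B (MORF), which acetylates histone H3, was at 16.6 and 22.0 CPM in VPRP sgHBB, 16.0 and 16.3 CPM in VPRP non-target, 31.4 and 28.6 CPM in p300, 33.5 and 33.5 CPM in p300 D1399Y, 32.0 and 30.4 CPM in VPR and 34.1 and 42.9 CPM in WT. The 4 VPRP libraries, 16.0 to 22.0 CPM, were separate from the other 8, 28.6 to 42.9 CPM. KAT6B fell 2.39-fold in VPRP non-target (log2 -1.25, SE 0.121, adjusted p = 7.46e-11) and 1.98-fold in VPRP sgHBB (log2 -0.99, SE 0.119, adjusted p = 9.88e-09) against WT. It also fell 1.93-fold in VPRP non-target against VPR (log2 -0.95, SE 0.123, adjusted p = 6.39e-08) and 1.54-fold in VPRP sgHBB against p300 (log2 -0.63, SE 0.121, adjusted p = 0.000151). Its paralogue KAT6A (MOZ) ran from 69.1 to 92.6 CPM. Its largest called change, lower in VPR against WT (log2 -0.31, SE 0.0830, adjusted p = 0.00595), failed when VPR replicate 2 (adjusted p = 0.0886) or WT replicate 1 (0.0713) was left out.

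KAT5 (TIP60), which acetylates histone H4 and H2A and acts in DNA repair, was at 19.4 and 18.2 CPM in VPRP sgHBB, 18.6 and 19.1 CPM in VPRP non-target, 19.6 and 25.3 CPM in p300, 21.7 and 23.7 CPM in p300 D1399Y, 25.3 and 26.8 CPM in VPR and 31.1 and 35.7 CPM in WT. All fusion libraries lay below both WT libraries. KAT5 fell 1.77-fold in VPRP sgHBB (log2 -0.83, SE 0.118, adjusted p = 2.82e-07), 1.77-fold in VPRP non-target (log2 -0.82, SE 0.118, adjusted p = 2.78e-07), 1.49-fold in p300 (log2 -0.57, SE 0.116, adjusted p = 0.000117) and 1.47-fold in p300 D1399Y (log2 -0.56, SE 0.117, adjusted p = 0.00034) against WT. The fall in VPR (log2 -0.36, SE 0.116, adjusted p = 0.021) failed when VPR replicate 1 (adjusted p = 0.0883) or WT replicate 2 (0.247) was left out. KAT5 overlaps RNASEH2C, which had 95.99 to 151 CPM. KAT7 overlaps FAM117A, which had 15.5 to 31.0 CPM, and the strand setting of the counting is not given in the sources used here, so reads in such overlaps cannot be assigned with certainty.

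KAT8 (MOF), which acetylates lysine 16 of histone H4, was at 29.5 and 30.3 CPM in VPRP sgHBB, 35.0 and 31.6 CPM in VPRP non-target, 37.9 and 40.2 CPM in p300, 43.9 and 40.3 CPM in p300 D1399Y, 35.7 and 40.8 CPM in VPR and 47.1 and 53.9 CPM in WT. VPRP sgHBB and VPRP non-target lay below all other libraries. KAT8 fell 1.69-fold in VPRP sgHBB (log2 -0.76, SE 0.0982, adjusted p = 4.47e-08) and 1.52-fold in VPRP non-target (log2 -0.60, SE 0.0970, adjusted p = 2.28e-06) against WT, and 1.31-fold in VPRP sgHBB against p300 (log2 -0.38, SE 0.0993, adjusted p = 0.00344). TAF1, the largest subunit of the general factor TFIID, was at 22.5 and 26.96 CPM in VPRP sgHBB, 18.3 and 20.3 CPM in VPRP non-target, 25.5 and 27.03 CPM in p300, 32.0 and 30.7 CPM in p300 D1399Y, 29.6 and 30.5 CPM in VPR and 34.1 and 39.5 CPM in WT. VPRP non-target was lowest and both WT libraries were highest. TAF1 fell 1.90-fold in VPRP non-target (log2 -0.93, SE 0.110, adjusted p = 7.28e-09), 1.48-fold in VPRP sgHBB (log2 -0.57, SE 0.108, adjusted p = 2.83e-05) and 1.40-fold in p300 (log2 -0.49, SE 0.107, adjusted p = 0.000316) against WT, and 1.55-fold in VPRP non-target against VPR (log2 -0.63, SE 0.112, adjusted p = 1.27e-05). Of the remaining acetyltransferases, GTF3C4, a subunit of the RNA polymerase III factor TFIIIC, ran from 98.0 to 144 CPM and fell 1.33-fold in VPRP sgHBB against WT (log2 -0.41, SE 0.0808, adjusted p = 4.81e-05). HAT1, which acetylates new histone H4 before it is laid down, ran from 99.1 to 147 CPM. The top value was VPR replicate 2, and the HAT1 call in VPR against WT (log2 0.36, SE 0.0864, adjusted p = 0.00219) was lost without it (adjusted p = 0.25).

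**Figure D3:**
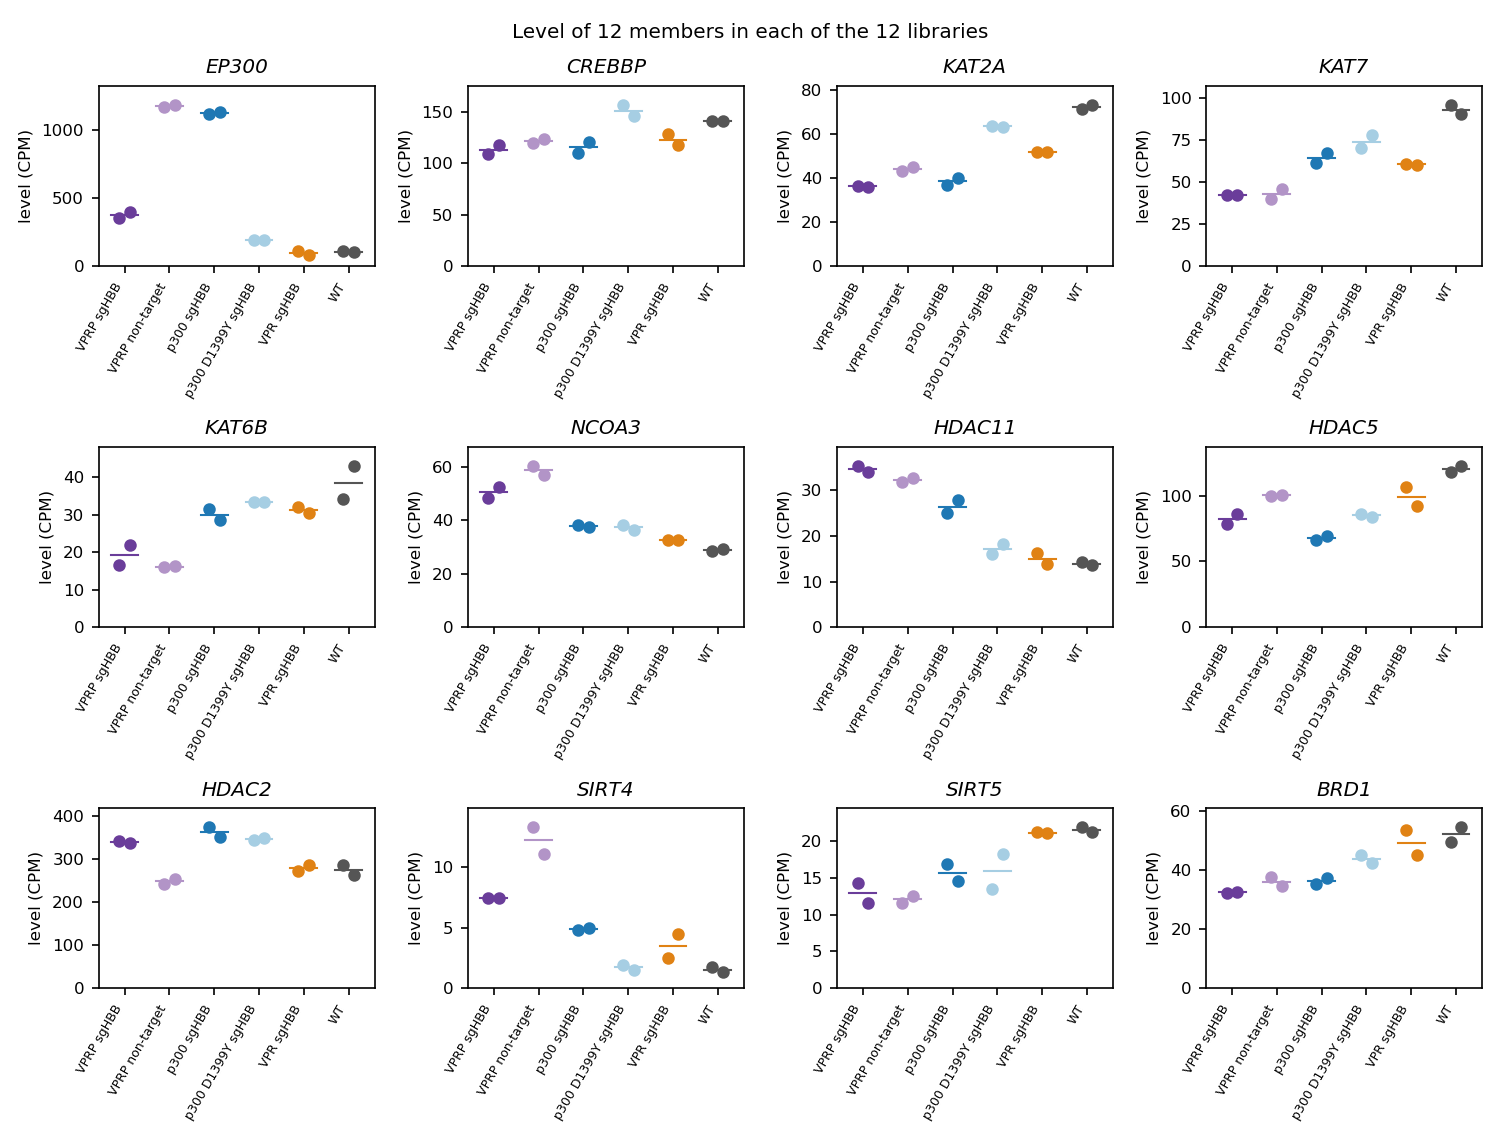
Level in CPM of 12 of the genes in each of the 12 libraries, with 2 points per group, a line at the group mean, and each vertical axis from 0 on its own scale. SIRT4, HDAC11 and NCOA3 are highest in the 2 VPRP groups, KAT2A, KAT7 and KAT6B are lowest there, or there and in p300, and HDAC2 is above 337 CPM in VPRP sgHBB, p300 and p300 D1399Y and no higher than 286 CPM in the other 3 groups.

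HDAC11 and SIRT4 carried the largest rises among the erasers in VPRP sgHBB, VPRP non-target and p300 against WT. HDAC11, the sole class IV deacetylase and an efficient remover of long-chain fatty acyl groups, was at 35.2 and 34.0 CPM in VPRP sgHBB, 31.6 and 32.6 CPM in VPRP non-target, 24.9 and 27.8 CPM in p300, 16.1 and 18.1 CPM in p300 D1399Y, 16.2 and 13.8 CPM in VPR and 14.2 and 13.5 CPM in WT. The VPRP groups were highest, p300 lay between, and p300 D1399Y, VPR and WT were lowest, VPR overlapping both of the others. HDAC11 rose 2.49-fold in VPRP sgHBB (log2 1.32, SE 0.116, adjusted p = 8.56e-12), 2.32-fold in VPRP non-target (log2 1.21, SE 0.117, adjusted p = 6.32e-11) and 1.90-fold in p300 (log2 0.93, SE 0.119, adjusted p = 7.13e-08) against WT. In p300 D1399Y (log2 0.30, SE 0.125, adjusted p = 0.066) and VPR (log2 0.12, SE 0.127, adjusted p = 0.54) against WT it was not called. It was 1.55-fold higher in p300 than in p300 D1399Y (log2 0.63, SE 0.115, adjusted p = 7.56e-05) and 2.14-fold higher in VPRP non-target than in VPR (log2 1.10, SE 0.115, adjusted p = 8.45e-10). Between VPRP sgHBB and VPRP non-target the value was 0.10 (SE 0.105, adjusted p = 0.5).

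SIRT4, a mitochondrial sirtuin that restrains glutamine and amino acid breakdown, was at 7.50 and 7.46 CPM in VPRP sgHBB, 13.3 and 11.1 CPM in VPRP non-target, 4.83 and 4.95 CPM in p300, 1.97 and 1.52 CPM in p300 D1399Y, 2.53 and 4.52 CPM in VPR and 1.75 and 1.36 CPM in WT. Every VPRP and p300 library lay above every p300 D1399Y, VPR and WT library, and VPRP non-target was highest. SIRT4 rose 7.84-fold in VPRP non-target (log2 2.97, SE 0.252, adjusted p = 3.26e-12), 4.81-fold in VPRP sgHBB (log2 2.26, SE 0.265, adjusted p = 5.33e-09) and 3.14-fold in p300 (log2 1.65, SE 0.280, adjusted p = 9.29e-06) against WT. p300 D1399Y overlapped WT and was not called against it (log2 0.18, SE 0.334, adjusted p = 0.729). The rise in VPR (log2 1.17, SE 0.298, adjusted p = 0.00353) rested on its second library and was lost without it (adjusted p = 0.18), and also without WT replicate 2 (0.06). SIRT4 was 2.77-fold higher in p300 than in p300 D1399Y (log2 1.47, SE 0.271, adjusted p = 7.87e-05) and 3.48-fold higher in VPRP non-target than in VPR (log2 1.80, SE 0.220, adjusted p = 1.96e-08). It was lower in VPRP sgHBB than in VPRP non-target (log2 -0.71, SE 0.196, adjusted p = 0.0061), but not with VPRP non-target replicate 1 left out (adjusted p = 0.115).

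Promoters are shown for SIRT4 and HDAC11, the erasers that rose most against WT, and for KAT2A and KAT7, acetyltransferases that fell, so that their sequence can be read beside these values. Each is the 250 bases before a RefSeq transcript start in GRCh38.p14, in the gene's own direction, 5′ to 3′. For SIRT4 it is the upstream one of 2 starts, at chr12:120291939-120292188 on the plus strand, for HDAC11 chr3:13480056-13480305 plus, for KAT2A chr17:42121368-42121617 minus and for KAT7 chr17:49788431-49788680 plus. Capitals mark matches on either strand to 4 motifs, the CRE (TGACGTCA, the site of CREB, a partner of p300), the GC box (GGGCGG), the CCAAT box (CCAAT) and the E box (CACGTG).
SIRT4: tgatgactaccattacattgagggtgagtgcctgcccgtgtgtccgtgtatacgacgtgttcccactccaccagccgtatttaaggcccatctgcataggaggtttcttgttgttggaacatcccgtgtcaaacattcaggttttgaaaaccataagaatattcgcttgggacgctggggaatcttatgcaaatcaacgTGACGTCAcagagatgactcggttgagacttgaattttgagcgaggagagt
HDAC11: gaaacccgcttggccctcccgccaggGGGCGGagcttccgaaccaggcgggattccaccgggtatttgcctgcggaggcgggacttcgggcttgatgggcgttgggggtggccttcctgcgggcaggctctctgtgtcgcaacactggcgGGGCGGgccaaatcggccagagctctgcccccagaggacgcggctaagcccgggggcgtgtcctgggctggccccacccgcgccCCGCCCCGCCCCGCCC
KAT2A: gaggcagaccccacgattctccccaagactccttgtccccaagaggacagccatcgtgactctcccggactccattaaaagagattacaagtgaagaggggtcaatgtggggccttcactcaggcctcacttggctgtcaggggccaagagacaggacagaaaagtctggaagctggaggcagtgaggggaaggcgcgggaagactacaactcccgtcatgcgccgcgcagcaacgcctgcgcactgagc
KAT7: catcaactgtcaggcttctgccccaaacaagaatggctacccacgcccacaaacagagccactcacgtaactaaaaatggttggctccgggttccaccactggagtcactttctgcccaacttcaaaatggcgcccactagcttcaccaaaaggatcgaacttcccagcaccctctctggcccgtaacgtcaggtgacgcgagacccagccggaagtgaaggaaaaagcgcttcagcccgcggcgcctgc
SIRT4 holds 1 CRE. HDAC11 holds 5 GC boxes, of which 3 in a row overlap by 1 base each, and the KAT2A and KAT7 windows hold none of the 4 motifs. Over 300-base windows that add the first 50 transcribed bases, 37 of the 43 genes had a RefSeq entry. In these, the CRE was found in 1 gene, SIRT4, and in 1.84% of 34796 promoters of all genes. The GC box was in 25 genes and 44.9% of promoters, the CCAAT box in 9 genes and 34.6%, and the E box in 4 genes and 7.2%. A listed gene was counted if any of its windows held the motif, while the percentages are of single windows, so the units are unlike. A match describes letters and is not evidence of binding.

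Class I deacetylases, of which HDAC1, HDAC2 and HDAC3 are the catalytic subunits of the SIN3, NuRD, CoREST and NCoR complexes, changed by less than 1.5-fold in every comparison. HDAC2 was at 343 and 337 CPM in VPRP sgHBB, 242 and 254 CPM in VPRP non-target, 374 and 352 CPM in p300, 343 and 349 CPM in p300 D1399Y, 273 and 286 CPM in VPR and 286 and 263 CPM in WT. All 6 libraries of VPRP sgHBB, p300 and p300 D1399Y lay above the other 6, and these are the groups with MAGEA10 near 0. HDAC2 rose 1.32-fold in p300 (log2 0.40, SE 0.0686, adjusted p = 1.12e-05), 1.26-fold in p300 D1399Y (log2 0.33, SE 0.0687, adjusted p = 0.000278) and 1.24-fold in VPRP sgHBB (log2 0.31, SE 0.0687, adjusted p = 0.000248) against WT. Between p300 and p300 D1399Y it was not called (log2 0.07, SE 0.0682, adjusted p = 0.494). HDAC1 ran from 402 to 563 CPM and was higher in VPRP sgHBB than in VPRP non-target (log2 0.38, SE 0.0722, adjusted p = 0.000124). HDAC3 ran from 93.4 to 123 CPM with 1 call, in p300 against p300 D1399Y (log2 0.20, SE 0.0756, adjusted p = 0.0394), which was lost when any 1 of those 4 libraries was left out (adjusted p 0.0658 to 0.266). HDAC8 ran from 43.0 to 61.5 CPM and fell in VPRP non-target against VPR (log2 -0.39, SE 0.0890, adjusted p = 0.000408).

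Class IIa deacetylases shuttle between nucleus and cytoplasm and bind MEF2 factors. HDAC5 was at 78.6 and 85.6 CPM in VPRP sgHBB, 99.4 and 101 CPM in VPRP non-target, 66.0 and 69.6 CPM in p300, 86.1 and 84.0 CPM in p300 D1399Y, 107 and 91.8 CPM in VPR and 118 and 122 CPM in WT. All fusion libraries lay below both WT libraries, and p300 was lowest. HDAC5 fell 1.77-fold in p300 (log2 -0.83, SE 0.0793, adjusted p = 1.92e-10), 1.46-fold in VPRP sgHBB (log2 -0.55, SE 0.0783, adjusted p = 2.77e-07), 1.41-fold in p300 D1399Y (log2 -0.50, SE 0.0784, adjusted p = 6.43e-06) and 1.20-fold in VPRP non-target (log2 -0.26, SE 0.0774, adjusted p = 0.00383) against WT. It also fell in p300 against p300 D1399Y (log2 -0.33, SE 0.0802, adjusted p = 0.00195), while VPRP non-target against VPR was at 0.01 (SE 0.0780, adjusted p = 0.91). HDAC7 was at 17.1 and 16.4 CPM in VPRP sgHBB, 17.1 and 16.4 CPM in VPRP non-target, 21.0 and 21.2 CPM in p300, 27.3 and 25.4 CPM in p300 D1399Y, 23.5 and 21.8 CPM in VPR and 23.8 and 28.0 CPM in WT. Its 4 VPRP libraries were the lowest. HDAC7 fell 1.55-fold in VPRP sgHBB (log2 -0.63, SE 0.116, adjusted p = 1.93e-05) and 1.55-fold in VPRP non-target (log2 -0.63, SE 0.116, adjusted p = 1.77e-05) against WT, and it overlaps SLC48A1, which had 17.1 to 23.1 CPM.

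HDAC9, at low levels, was at 2.87 and 2.54 CPM in VPRP sgHBB, 1.88 and 2.27 CPM in VPRP non-target, 3.43 and 3.24 CPM in p300, 1.33 and 1.52 CPM in p300 D1399Y, 1.46 and 2.39 CPM in VPR and 3.36 and 2.72 CPM in WT. Its p300 libraries lay above those of p300 D1399Y, and WT overlapped neither p300 D1399Y nor VPR. HDAC9 was 2.34-fold higher in p300 than in p300 D1399Y (log2 1.23, SE 0.330, adjusted p = 0.00456), lost without p300 D1399Y replicate 1 (adjusted p = 0.0522), and 2.13-fold lower in p300 D1399Y than in WT (log2 -1.09, SE 0.337, adjusted p = 0.0124), lost without p300 D1399Y replicate 1 (0.0836) or WT replicate 1 (0.103). HDAC4 ran from 10.9 to 22.0 CPM. Its calls were lower in VPRP non-target against WT (log2 -0.44, SE 0.140, adjusted p = 0.00718), lost without VPRP non-target replicate 1 (adjusted p = 0.104) or WT replicate 2 (0.094), and lower in VPRP sgHBB against p300 (log2 -0.45, SE 0.134, adjusted p = 0.0111), lost without VPRP sgHBB replicate 1 (0.105) or p300 replicate 2 (0.0877).

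In class IIb, HDAC6, the cytoplasmic deacetylase of tubulin, was at 57.5 and 53.8 CPM in VPRP sgHBB, 46.0 and 47.3 CPM in VPRP non-target, 58.4 and 60.1 CPM in p300, 63.1 and 58.9 CPM in p300 D1399Y, 52.1 and 48.4 CPM in VPR and 80.1 and 80.9 CPM in WT. Both WT libraries lay above all 10 fusion libraries. HDAC6 fell 1.73-fold in VPRP non-target (log2 -0.79, SE 0.0815, adjusted p = 3.53e-10), 1.60-fold in VPR (log2 -0.68, SE 0.0817, adjusted p = 1.46e-07), 1.45-fold in VPRP sgHBB (log2 -0.53, SE 0.0806, adjusted p = 7.71e-07), 1.36-fold in p300 (log2 -0.44, SE 0.0802, adjusted p = 2.66e-05) and 1.32-fold in p300 D1399Y (log2 -0.40, SE 0.0803, adjusted p = 0.00021) against WT. Between p300 and p300 D1399Y (log2 -0.04, SE 0.0813, adjusted p = 0.74) and between VPRP non-target and VPR (log2 -0.11, SE 0.0838, adjusted p = 0.283) it was not called.

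Among the other sirtuins, SIRT5, a mitochondrial remover of succinyl and malonyl groups, was at 14.3 and 11.6 CPM in VPRP sgHBB, 11.6 and 12.5 CPM in VPRP non-target, 16.8 and 14.5 CPM in p300, 13.5 and 18.3 CPM in p300 D1399Y, 21.2 and 21.1 CPM in VPR and 21.8 and 21.2 CPM in WT. The 4 VPRP libraries lay below all VPR and WT libraries. SIRT5 fell 1.78-fold in VPRP non-target (log2 -0.83, SE 0.141, adjusted p = 5.07e-06) and 1.67-fold in VPRP sgHBB (log2 -0.74, SE 0.140, adjusted p = 3.05e-05) against WT, and 1.75-fold in VPRP non-target against VPR (log2 -0.81, SE 0.141, adjusted p = 1.09e-05). SIRT3, the main mitochondrial deacetylase, ran from 23.6 to 37.0 CPM and fell 1.47-fold in p300 (log2 -0.56, SE 0.108, adjusted p = 6.25e-05), 1.39-fold in VPRP sgHBB (log2 -0.48, SE 0.108, adjusted p = 0.000272), 1.38-fold in p300 D1399Y (log2 -0.46, SE 0.108, adjusted p = 0.00114) and 1.35-fold in VPRP non-target (log2 -0.43, SE 0.107, adjusted p = 0.000829) against WT. It overlaps RIC8A, which had 93.0 to 118 CPM. So of the 3 mitochondrial sirtuins SIRT4 was higher and SIRT3 and SIRT5 lower in VPRP sgHBB, VPRP non-target and p300 against WT. The SIRT5 fall in p300 (log2 -0.46, SE 0.137, adjusted p = 0.00666) was lost without p300 replicate 2 (adjusted p = 0.0989).

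SIRT2, a mostly cytoplasmic deacetylase of tubulin and histone H4, ran from 63.9 to 101 CPM. It rose 1.34-fold in p300 against p300 D1399Y (log2 0.42, SE 0.0768, adjusted p = 7.28e-05) and 1.35-fold in VPRP sgHBB against WT (log2 0.43, SE 0.0761, adjusted p = 1.03e-05). SIRT1, the nuclear deacetylase of histones and p53, was at 50.7 and 54.9 CPM in VPRP sgHBB, 62.6 and 64.7 CPM in VPRP non-target, 45.2 and 44.2 CPM in p300, 59.5 and 54.4 CPM in p300 D1399Y, 51.4 and 49.1 CPM in VPR and 56.1 and 53.9 CPM in WT. VPRP non-target was highest and p300 lowest. SIRT1 rose in VPRP non-target against VPR (log2 0.34, SE 0.0835, adjusted p = 0.00085), and fell in p300 against WT (log2 -0.30, SE 0.0851, adjusted p = 0.00403) and against p300 D1399Y (log2 -0.35, SE 0.0846, adjusted p = 0.00171), the last lost without p300 D1399Y replicate 1 (adjusted p = 0.0764). SIRT7, a nucleolar sirtuin, ran from 13.2 to 22.1 CPM and rose 1.49-fold in VPRP non-target against VPR (log2 0.57, SE 0.128, adjusted p = 0.000287). SIRT6, a chromatin sirtuin, ran from 25.4 to 37.2 CPM, and its single call, lower in VPRP sgHBB against WT (log2 -0.30, SE 0.108, adjusted p = 0.0177), was lost without VPRP sgHBB replicate 2 (adjusted p = 0.303) or WT replicate 2 (0.2).

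Of the 10 readers, 7 fell and none rose in VPRP sgHBB against WT, and 6 fell and 2 rose in VPRP non-target against WT, where of all genes tested 28% and 28.5% were lower and 31.1% and 31.2% higher. The 2 rises in VPRP non-target, BRD2 (log2 0.17, SE 0.0706, adjusted p = 0.0329) and BRPF1 (log2 0.24, SE 0.0927, adjusted p = 0.0284), failed with no filter on low counts (adjusted p 0.176 and 0.149) and without VPRP non-target replicate 1 (0.189 and 0.148), VPRP non-target replicate 2 (0.211 and 0.153) or WT replicate 1 (0.454 and 0.406). BRPF1 also failed with DESeq2 (0.0705). The fall of BRD9 in VPRP non-target (log2 -0.26, SE 0.103, adjusted p = 0.0305) failed with DESeq2 (0.0936), with upper-quartile scaling (0.0772) and when any 1 of those 4 libraries was left out (0.058 to 0.0893). BRD1, a scaffold of MYST acetyltransferases, was at 32.3 and 32.7 CPM in VPRP sgHBB, 37.7 and 34.6 CPM in VPRP non-target, 35.4 and 37.4 CPM in p300, 45.1 and 42.5 CPM in p300 D1399Y, 53.5 and 45.1 CPM in VPR and 49.7 and 54.5 CPM in WT. The VPRP and p300 libraries lay below all others. BRD1 fell 1.60-fold in VPRP sgHBB (log2 -0.68, SE 0.0957, adjusted p = 2.04e-07), 1.44-fold in VPRP non-target (log2 -0.53, SE 0.0945, adjusted p = 1.24e-05) and 1.43-fold in p300 (log2 -0.52, SE 0.0947, adjusted p = 2.89e-05) against WT. BPTF, the large subunit of the NURF remodeller, was at 47.6 and 61.1 CPM in VPRP sgHBB, 42.0 and 46.4 CPM in VPRP non-target, 61.7 and 62.8 CPM in p300, 71.9 and 69.4 CPM in p300 D1399Y, 66.7 and 72.8 CPM in VPR and 67.7 and 77.0 CPM in WT. Both VPRP non-target libraries lay below all others. BPTF fell 1.63-fold in VPRP non-target against WT (log2 -0.71, SE 0.0960, adjusted p = 9.94e-08) and 1.58-fold in VPRP non-target against VPR (log2 -0.66, SE 0.0962, adjusted p = 6.1e-07). BRD8, a subunit of the TIP60 complex, was at 53.4 and 49.4 CPM in VPRP sgHBB, 54.8 and 54.2 CPM in VPRP non-target, 58.4 and 55.7 CPM in p300, 61.1 and 60.8 CPM in p300 D1399Y, 74.4 and 80.5 CPM in VPR and 71.2 and 75.4 CPM in WT. The 4 VPRP libraries lay below all others, and the 4 VPR and WT libraries lay above all others. BRD8 fell 1.51-fold in VPRP sgHBB (log2 -0.59, SE 0.0812, adjusted p = 2.36e-07) and 1.42-fold in VPRP non-target (log2 -0.51, SE 0.0806, adjusted p = 2.6e-06) against VPR.

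The BET reader BRD3 ran from 60.2 to 95.8 CPM and fell 1.42-fold in VPRP non-target (log2 -0.50, SE 0.0861, adjusted p = 6.53e-06) and 1.38-fold in VPRP sgHBB (log2 -0.47, SE 0.0862, adjusted p = 1.91e-05) against WT. BRD2, another BET reader, ran from 306 to 399.8 CPM and rose 1.24-fold in VPRP non-target against VPR (log2 0.31, SE 0.0707, adjusted p = 0.000441). The 2 BET genes were thus called in opposite directions in VPRP non-target against VPR, where BRD3 fell (log2 -0.48, SE 0.0862, adjusted p = 1.63e-05). BRD7, a subunit of a SWI/SNF complex, ran from 69.9 to 102 CPM and fell 1.40-fold in VPRP non-target against WT (log2 -0.49, SE 0.0775, adjusted p = 1.96e-06). BRPF1, a scaffold of KAT6A and KAT6B, ran from 36.1 to 53.1 CPM and rose 1.30-fold in VPRP non-target against VPR (log2 0.38, SE 0.0935, adjusted p = 0.000803). BRPF3, BRD9 and CECR2 ran from 38.4 to 56.9, 23.5 to 35.7 and 25.8 to 34.6 CPM. BRPF3 fell in p300 against WT (log2 -0.35, SE 0.0942, adjusted p = 0.00239) and BRD9 in VPRP sgHBB against WT (log2 -0.36, SE 0.104, adjusted p = 0.00322). BRD3 overlaps BRD3OS, at 28.9 to 51.4 CPM, and BRD7 overlaps ADCY7, at 3.93 to 10.1 CPM. The single CECR2 call, lower in VPRP sgHBB against WT (log2 -0.35, SE 0.109, adjusted p = 0.00676), was lost without WT replicate 1 (adjusted p = 0.0703).

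Of the comparisons, 3 share no library: p300 against p300 D1399Y, VPRP non-target against VPR, and VPRP sgHBB against WT. In each, the first group had more EP300 reads. EP300 aside, HDAC11, SIRT2 and SIRT4 were higher and KAT2A, NCOA2, HDAC7 and BRD1 lower in all 3. With EP300 these are 4 genes higher and 4 lower, beside 7.94% and 7.14% of all genes tested. Together the 8 are 18.6% of the 43, beside 15.1%, so the share is near the background. In the first 2 alone, which do not cross the MAGEA10 difference, the same 8 and KAT2B were called the same way, 4 higher beside 9.87% and 5 lower beside 9.58% of all genes. The 9 are 20.9% of the 43, beside 19.5%. HDAC11, SIRT4 and NCOA2 kept their calls in all 3 comparisons under every alternative tried, and KAT2B in the first 2. For HDAC7 the value in p300 against p300 D1399Y (log2 -0.32, SE 0.113, adjusted p = 0.029) and for BRD1 (log2 -0.27, SE 0.0956, adjusted p = 0.031) was lost without p300 replicate 1 (adjusted p 0.121 and 0.184), p300 replicate 2 (0.101 and 0.0635), p300 D1399Y replicate 1 (0.232 and 0.242) or p300 D1399Y replicate 2 (0.0507 and 0.0522). SIRT2 in VPRP non-target against VPR (log2 0.26, SE 0.0763, adjusted p = 0.00503) was lost without VPRP non-target replicate 2 (adjusted p = 0.0823), and KAT2A there in the 3 settings given above. The count of 8 was 5 with DESeq2.

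**Figure D4:**
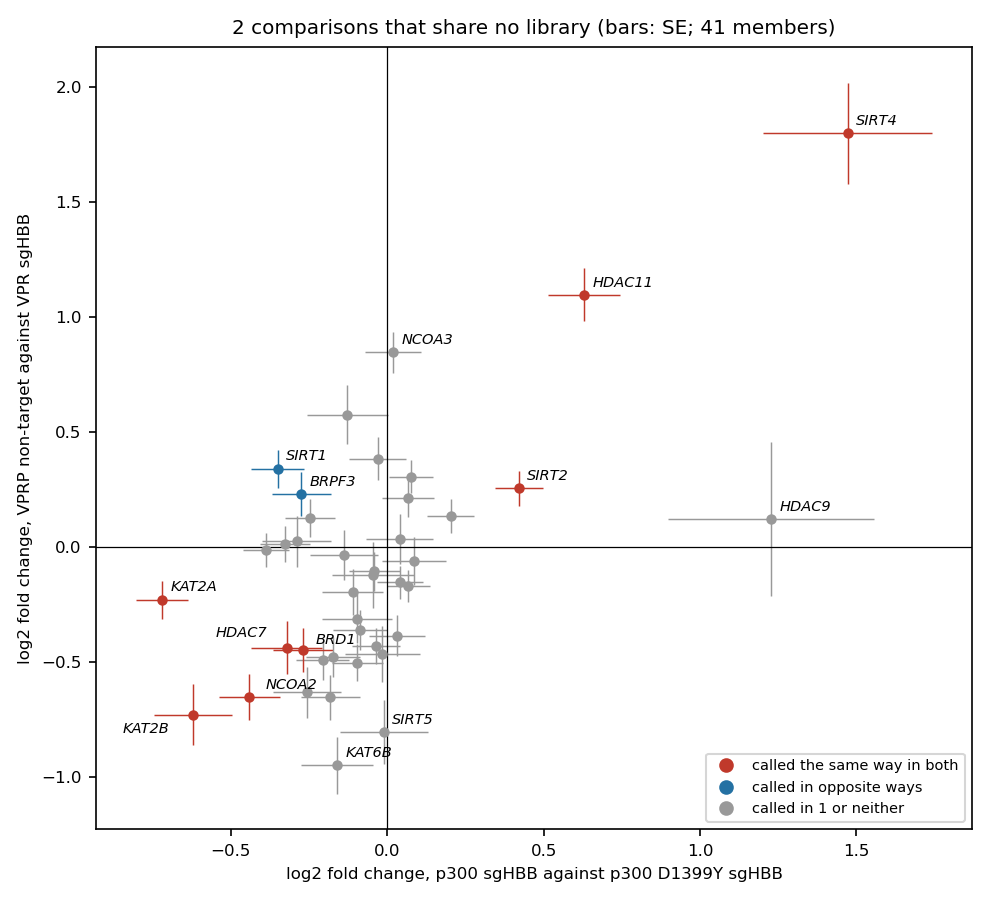
log2 fold change in p300 against p300 D1399Y (horizontal) and in VPRP non-target against VPR (vertical), 2 comparisons with no library in common, for the genes other than EP300 and HDAC10, with bars for the SE. SIRT4, HDAC11 and SIRT2 lie at the upper right and KAT2A, KAT2B, NCOA2, HDAC7 and BRD1 at the lower left (red, called the same way in both), and SIRT1 and BRPF3 lie at the upper left (blue, called in opposite ways).

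The HBB guide and the non-targeting guide could be compared with VPRP, across a 3.13-fold difference in EP300 reads and the MAGEA10 difference. The calls kept under every alternative were EP300, KAT2B, HDAC1 and HDAC2. KAT2B was 1.65-fold, HDAC2 1.37-fold (log2 0.45, SE 0.0687, adjusted p = 4.06e-06) and HDAC1 1.30-fold higher in VPRP sgHBB than in VPRP non-target. KAT7 (log2 -0.02, SE 0.0897, adjusted p = 0.904), KAT5 (SE 0.123, adjusted p = 0.989), HDAC7 (log2 0.00, SE 0.120, adjusted p = 0.997) and HDAC11 (log2 0.10, SE 0.105, adjusted p = 0.5) were not called between the 2 guides. VPRP sgHBB and p300 share the guide but differ in the VPR part and in EP300 reads, and these cannot be told apart. In VPRP sgHBB against p300 the calls kept under every alternative were EP300 (log2 -1.58, SE 0.0821, adjusted p = 1.37e-16), KAT6B, KAT7 and KAT8 lower and NCOA3 higher. SIRT4 was 1.53-fold higher in VPRP sgHBB than in p300 (log2 0.61, SE 0.216, adjusted p = 0.0315). That call failed with DESeq2 (adjusted p = 0.11) and when any 1 of those 4 libraries was left out (0.0959 to 0.131). Against VPR with the same guide, VPRP sgHBB had 2.30-fold more HDAC11 (log2 1.20, SE 0.115, adjusted p = 1.3e-10), 2.13-fold more SIRT4 (log2 1.09, SE 0.230, adjusted p = 0.000169), 1.55-fold more NCOA3 (log2 0.63, SE 0.0894, adjusted p = 4.19e-07), 1.64-fold less SIRT5 (log2 -0.71, SE 0.141, adjusted p = 7.44e-05), 1.61-fold less KAT6B (log2 -0.68, SE 0.121, adjusted p = 1.61e-05) and 1.52-fold less BRD1 (log2 -0.60, SE 0.0960, adjusted p = 3.14e-06).

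Partners of these enzymes were counted in 8 lists beside the 43 genes, in the 3 comparisons that share no library. In VPRP sgHBB against WT 5 SAGA and ATAC partners of 21 tested were higher and 12 lower, 1 and 11 of 15 TIP60 partners, 1 and 8 of 14 MYST partners, 6 and 20 of 34 subunits of HDAC1, HDAC2 and HDAC3 complexes, 2 and 9 of 25 other bromodomain and YEATS readers, 4 and 6 of 17 genes of acetyl-CoA supply, 4 and 3 of 11 genes of NAD supply and use, and 5 and 6 of 15 binding partners of p300. Of all genes tested 31.1% were higher and 28% lower. Median log2 changes of these lists ran from -0.43 (TIP60 partners) to -0.02 (NAD supply and use), beside 0.04 over all genes. In VPRP non-target against VPR, with 27% higher and 28.2% lower in the background, 5 SAGA and ATAC partners were higher and 7 lower, 0 and 9 TIP60 partners, 3 and 9 MYST partners, 7 and 16 subunits of the HDAC1, HDAC2 and HDAC3 complexes, 3 and 12 other readers, 3 and 9 genes of acetyl-CoA supply, 0 and 5 of NAD supply and use, and 5 and 4 partners of p300. In p300 against p300 D1399Y, with 15.4% higher and 15% lower in the background, 3 SAGA and ATAC partners were higher and 5 lower. TIP60 partners gave 1 and 2, MYST partners 1 and 6, and subunits of the HDAC1, HDAC2 and HDAC3 complexes 2 and 11. Other readers gave 2 and 7, acetyl-CoA supply 3 and 3, NAD supply and use 4 and 4, and partners of p300 2 and 3. Medians there ran from -0.136 (HDAC complex subunits) to 0.127 (NAD supply and use), beside 0.01 over all genes.

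Subunits of the HDAC1, HDAC2 and HDAC3 complexes changed in both directions. RCOR1, the CoREST scaffold, rose 1.58-fold in VPRP sgHBB against WT (log2 0.66, SE 0.0912, adjusted p = 1.57e-07) and 1.66-fold in VPRP non-target against VPR (log2 0.73, SE 0.0905, adjusted p = 2.27e-08), and SAP130, a SIN3 complex subunit, rose 1.68-fold in VPRP non-target against VPR (log2 0.75, SE 0.0797, adjusted p = 1.12e-09). TBL1X, part of the NCoR complex, fell 2.86-fold in VPRP sgHBB against WT (log2 -1.51, SE 0.0828, adjusted p = 3.73e-17) and 1.80-fold in VPRP non-target against VPR (log2 -0.85, SE 0.0847, adjusted p = 2.53e-10). MTA1, a NuRD subunit, fell 2.06-fold in VPRP sgHBB against WT (log2 -1.04, SE 0.0733, adjusted p = 3.06e-14), and NCOR1 fell 1.75-fold in VPRP non-target against VPR (log2 -0.80, SE 0.0835, adjusted p = 6.21e-10). CHD3, another NuRD subunit, fell 1.73-fold in p300 against p300 D1399Y (log2 -0.79, SE 0.0775, adjusted p = 1.11e-09). In SAGA, where KAT2A works, USP22, its deubiquitinase, fell 2.03-fold (log2 -1.02, SE 0.0717, adjusted p = 2.69e-14) and TRRAP, its activator-binding subunit, 1.75-fold (log2 -0.81, SE 0.0938, adjusted p = 4.18e-09) in VPRP sgHBB against WT, while TAF12 rose 1.86-fold (log2 0.90, SE 0.0909, adjusted p = 2.23e-10).

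ING1, a subunit of the SIN3 complex that reads methylated histone H3, rose in all 3 comparisons, 1.52-fold in p300 against p300 D1399Y (log2 0.60, SE 0.117, adjusted p = 0.000165), 2.19-fold in VPRP non-target against VPR (log2 1.13, SE 0.124, adjusted p = 1.95e-09) and 2.98-fold in VPRP sgHBB against WT (log2 1.58, SE 0.124, adjusted p = 4.84e-13). DPF3, a reader in a SWI/SNF complex, rose 2.81-fold (log2 1.49, SE 0.184, adjusted p = 1.23e-07), 1.59-fold (log2 0.67, SE 0.180, adjusted p = 0.00193) and 1.73-fold (log2 0.79, SE 0.187, adjusted p = 0.000442) in the same order, and the middle call was lost without VPRP non-target replicate 1 (adjusted p = 0.062). CITED4, which binds p300, rose 3.11-fold in VPRP non-target against VPR (log2 1.64, SE 0.146, adjusted p = 2.03e-11) and 2.02-fold in VPRP sgHBB against WT (log2 1.01, SE 0.149, adjusted p = 4.69e-07). On the supply side, ACSS1, the mitochondrial acetyl-CoA synthetase, fell 2.26-fold in VPRP sgHBB against WT (log2 -1.18, SE 0.103, adjusted p = 7.37e-12) and 1.66-fold in VPRP non-target against VPR (log2 -0.73, SE 0.106, adjusted p = 4.61e-07). QPRT, which makes a precursor of NAD, fell 1.63-fold in p300 against p300 D1399Y (log2 -0.70, SE 0.0829, adjusted p = 5.54e-08) and 2.08-fold in VPRP non-target against VPR (log2 -1.05, SE 0.0878, adjusted p = 3.62e-12). NAPRT, which starts NAD synthesis from nicotinic acid, rose 3.07-fold in VPRP sgHBB (log2 1.62, SE 0.177, adjusted p = 1.28e-09), 2.05-fold in p300 (log2 1.03, SE 0.185, adjusted p = 2.11e-05) and 2.95-fold in p300 D1399Y (log2 1.56, SE 0.179, adjusted p = 1.9e-08) against WT. These are the groups with MAGEA10 near 0, and the part of that difference was not tested. NAPRT values for VPRP non-target and VPR are not given here.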

How the data were processed

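Poly(A) RNA of 12 libraries, 6 groups of 2, was sequenced, and the authors deposited raw read counts per gene in 1 table. STAR 2.5, HTSeq 0.6.1 and hg19 are among the tools and builds named, per the submitters' processing notes, which give no role. Neither the annotation release nor the strand setting of the counting is stated there. Totals ran from 14894558 to 17479523 counts per library, which limits what low genes such as HDAC10 can show.

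From the counts, edgeR 4.0.16 in R 4.3.3 was run with TMM factors, its filter by group (minimum count 10, minimum total 15), and 1 quasi-likelihood fit of the 6 group means over all 12 libraries. All p-values are two-sided and Benjamini-Hochberg adjusted over the 16694 genes tested. The SE is the size of the log2 change divided by the square root of the F statistic. The labels' design text calls the libraries biological replicates and does not say that they came from separate cultures, so p-values may measure technical spread. Alternatives were RLE and upper-quartile factors, DESeq2 1.42.0, no filter, at least 1 CPM in 2 libraries, only the 2 groups compared, a replicate block and each library left out. The fit was first tested on simulated data. Promoters came from a RefSeq table for GRCh38.p14, and no genome was used.

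The 43 genes, the partner lists and the comparisons were chosen with earlier results of these data known. Every library's value is given for EP300, CREBBP and each gene with adjusted p under 0.05, 1.5-fold or more and non-overlapping libraries in any comparison, and also for SIRT1 and HDAC2, chosen after their values were seen. Other genes are given by range. From each partner list up to 4 of the largest called changes of 1.5-fold or more in each direction could be named. A few genes of the marker and partner lists are not reported here by name.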

Additional observations from a re-analysis of the deposited data

Results flagged for a closer look

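For 2 genes the changes were called in opposite directions in 2 comparisons that share no library. SIRT1 changed by -0.35 (log2) in p300 against p300 D1399Y and by 0.34 in VPRP non-target against VPR, a difference of -0.69 (SE 0.119, adjusted p = 4.1e-05 in edgeR's quasi-likelihood test over all genes). Without p300 D1399Y replicate 1 the first of these changes was no longer called (adjusted p = 0.0764), while the adjusted p of the difference ran from 2.27e-05 to 0.0014 over the alternatives. BRPF3, a scaffold of MYST acetyltransferases, changed by -0.28 and by 0.23, a difference of -0.505 (SE 0.133, adjusted p = 0.00432). Neither BRPF3 change was stable. The one in p300 against p300 D1399Y failed with upper-quartile scaling (adjusted p = 0.0588), with DESeq2 (0.0666) and when any 1 of those 4 libraries was left out (0.0657 to 0.142). The one in VPRP non-target against VPR failed in 6 settings, the highest adjusted p being 0.662 without VPR replicate 2, where it was 0.06 (log2). For BRPF3 the adjusted p of the difference ran from 9.02e-05 to 0.0571, the highest without VPR replicate 2. The guide differs between VPRP non-target and VPR as well as the p300 part, and these cannot be told apart. The 2 comparisons also differ in their reference, a p300 fusion with the substitution or a fusion with no p300 part. EP300 rose by 2.53 (log2) in the first and 3.57 in the second. MAGEA10 averaged 0 CPM in p300, 0.0692 in p300 D1399Y, 32.0 in VPRP non-target and 25.9 in VPR. The part of these differences was not tested. The test was added after the values were seen. Both genes were picked by these same opposite calls and by the test's own adjusted p, so it is no separate support for them. It was run in 13 alternatives, which leave out DESeq2 and the fits of only the 2 groups compared. In the main fit the same difference was called for 28.7% of all genes and for 18 of the 43.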

How the results depend on the processing

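No called value of the 43 genes changed sign: of 2442 checks of 222 calls, 2130 stayed past the threshold and 312 did not, and 65 of the 70 calls of 1.5-fold or more with separate libraries were kept in every setting. The count called the same way in 3 comparisons, 8, was 5 with DESeq2 and 6 to 9 when libraries were left out. Leaving out 1 library gave these ranges of genes called: VPRP sgHBB against WT 28 to 31, VPRP non-target against WT 23 to 27, p300 against WT 21 to 25, p300 D1399Y against WT 11 to 13, VPR against WT 6 to 13, p300 against p300 D1399Y 9 to 12, VPRP non-target against VPR 24 to 30, VPRP sgHBB against VPR 22 to 25, VPRP sgHBB against p300 7 to 12 and VPRP sgHBB against VPRP non-target 4 to 9. Fewer libraries enter those fits, and other causes were not tested. With DESeq2, run without the filter on low counts, the median of all genes moved by up to 0.113 (log2), in VPRP non-target against VPR. That median covers more genes than the main fit, and edgeR with no filter moved it by 0.0536 there. With the replicate number as a block, 13 to 32 genes were called per comparison, as without it, and VPR against WT gave 13 in place of 15. Same-numbered libraries did not all deviate together: over 7992 genes, 15 correlations ran from -0.366 to 0.288, 3 of them over 0.1. With both signs present, these show no pairing by number common to all groups. They cannot exclude pairing of some groups or a shared batch. Depth limits HDAC10, SIRT4 and HDAC9 most.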
